A study of Mus musculus with 9 samples.

Results

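Exosomal miRNAs of the H/R-LV-BMAL1 group were compared with those of the LV-NC group, to find which miRNAs stayed away from the normoxic level after hypoxia/reoxygenation (H/R) in cells carrying the BMAL1 lentivirus and which lay near it. The libraries were chosen by their group labels, 3 of H/R-LV-BMAL1 and 3 of LV-NC, which are 6 of the 9 libraries in all. The remaining 3 libraries, of the H/R-LV-NC group, entered the estimate of the spread and are given beside part of the results. The cells were TCMK-1, a line established from mouse kidney tubular epithelium. Both viruses were given at a multiplicity of infection of 100, the LV-NC virus being the empty pcSLenti vector and LV-BMAL1 the same vector with Bmal1, tagged with Flag, behind a CMV promoter. LV-NC cells stayed in normal culture, whereas H/R meant 24 h of hypoxia in exosome-free medium at 1% O2, with 12 h of reoxygenation at 21% O2 after it. Whether the LV-NC medium was also exosome-free is not stated in the labels. H/R-LV-BMAL1 therefore differed from LV-NC in the virus and in H/R at once. H/R-LV-NC shares the virus with LV-NC and H/R with H/R-LV-BMAL1, so its values are given beside part of the main ones. No group had the BMAL1 virus without H/R.

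Exosomes are small vesicles that cells release and that carry miRNAs to other cells. A miRNA is cut from one arm (5p or 3p) of an RNA hairpin and represses messenger RNAs that pair with its seed, bases 2 to 8 from the 5′ end. BMAL1 is a transcription factor of the circadian clock. Low oxygen activates HIF transcription factors, and miR-210-3p is the miRNA best known to be induced by them.

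Small RNA from exosomes was counted with unique molecular identifiers (UMIs), which count each captured molecule once. The LV-NC libraries held 977490 to 1147768 UMIs and the H/R-LV-BMAL1 libraries 3357851 to 4057046, so depth differed with the groups. Of 1978 miRNAs listed, 1682 passed the filter on low counts and went into edgeR's quasi-likelihood test. Values are CPM, the UMIs of a miRNA relative to those of its library, scaled by TMM on the premise that few miRNAs differ, and results with plain scaling to the total UMIs are given beside them. The median log2 fold change of all 1682 was 0.02 with TMM and -0.47 with total UMIs, a shift of -0.49 between scalings. The libraries of H/R-LV-BMAL1 were less alike than those of LV-NC. Over 728 miRNAs with a mean of at least 50 UMIs, the SD of the log2 difference between a pair of libraries was 0.668 to 1.62 within H/R-LV-BMAL1, 0.641 to 0.778 within LV-NC and 0.771 to 1.60 between them. The library H/R-LV-BMAL1 1 stood apart, since 29 of these 728 miRNAs were at least 10 times higher in it than in each of the other 5 libraries, and together they took 3.44% of its UMIs. The most extreme was mmu-miR-8090, with 33208 UMIs there, 35 and 68 in the other H/R-LV-BMAL1 libraries and 13 to 40 in LV-NC. None of the 29 passed the test with either scaling. The cell label was set beside lists of miRNAs known from kidney tubule and epithelium, whose sums by themselves do not identify the cells. The kidney tubule list has 14 miRNAs, among them miR-30a-5p, miR-30e-5p and miR-10b-5p. The kidney tubule list took 3.58% to 4.17% of LV-NC UMIs and 4.25% to 4.65% of H/R-LV-BMAL1 UMIs, but the 5 miRNAs of the epithelial miR-200 family were near 0, with a summed level of 26.5 to 47.0 CPM for LV-NC and 22.9 to 36.6 CPM for H/R-LV-BMAL1.

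The sequences of the 4 miRNAs that passed the test are shown first, because the distance from normoxia turns on them. After them come miRNAs of shared seed that lay near the normoxic level (the miR-125 and let-7 families), miRNAs of shared seed that were away from it when scaled to total UMIs (miR-29, miR-26, miR-148 and miR-30), and a pair of the same seed with unlike values (miR-25-3p and miR-92a-3p). Mature sequences are from RefSeq (GRCm38.p6), 5′ to 3′, with the seed in capitals.
miR-210-3p: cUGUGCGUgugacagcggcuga
miR-7021-5p: aUAGGAGUugauuacagagcaa
miR-6945-5p: uCCUGGGAggggcagccccugg
miR-3072-5p: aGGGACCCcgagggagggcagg
miR-125b-5p: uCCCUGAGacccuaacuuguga
miR-125a-5p: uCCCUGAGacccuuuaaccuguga
let-7b-5p: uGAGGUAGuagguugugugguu
let-7c-5p: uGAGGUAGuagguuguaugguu
let-7f-5p: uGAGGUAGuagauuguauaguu
miR-29a-3p: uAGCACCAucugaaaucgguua
miR-29c-3p: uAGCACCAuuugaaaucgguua
miR-26a-5p: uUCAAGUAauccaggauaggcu
miR-26b-5p: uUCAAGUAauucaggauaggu
miR-148b-3p: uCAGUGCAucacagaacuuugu
miR-152-3p: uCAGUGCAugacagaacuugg
miR-30a-5p: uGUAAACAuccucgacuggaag
miR-30e-5p: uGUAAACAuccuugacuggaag
miR-25-3p: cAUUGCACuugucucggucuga
miR-92a-3p: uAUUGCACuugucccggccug
The 4 miRNAs that passed have unlike seeds. The members of a family differ only outside the seed, and let-7b-5p from let-7c-5p, miR-29a-3p from miR-29c-3p and miR-30a-5p from miR-30e-5p by 1 base, so reads with an error there could be counted for the other member and their separate values are uncertain.

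Among the 4 miRNAs that passed the test with TMM, miR-210-3p stayed farthest from the normoxic level. With total UMIs it was the higher miRNA farthest from it, but lower ones that passed there lay farther away, such as miR-24-1-5p at -3.53 and miR-3072-5p at -2.23. The 3 LV-NC libraries had 324, 379.2 and 431 CPM scaled by TMM, those of H/R-LV-NC had 1226, 699 and 977, and those of H/R-LV-BMAL1 had 2023, 2603 and 2703. The H/R-LV-BMAL1 libraries lay above every other library, with 6117 to 6910 UMIs each. The means were 378 ± 53.5 for LV-NC and 2443 ± 367 for H/R-LV-BMAL1 (SD, n = 3), a rise of 6.46-fold (95% confidence interval 4.07 to 10.2). On the log2 scale the rise was 2.69 with a standard error of 0.303 (edgeR, adjusted p = 0.00339), and 2.16 with total UMIs (edgeR, adjusted p = 0.000347). A two-sided exact permutation test gave p = 0.1 with either scaling, the smallest that 3 libraries against 3 allow. With TMM it missed the threshold without LV-NC 1 (edgeR, adjusted p = 0.101) and without LV-NC 2 (edgeR, adjusted p = 0.0567), with log2 fold changes of 2.54 and 2.69. The miRNA lies at chr7:141221407-141221428 on the minus strand (GRCm38), in the miRNA gene Mir210. Against the same LV-NC libraries, H/R-LV-NC had a log2 fold change of 1.35, so its libraries lay between the groups compared.

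The other 2 miRNAs that rose were numbered miRNAs at low levels. For miR-7021-5p the LV-NC libraries had 15.9, 17.8 and 17.1 CPM scaled by TMM, those of H/R-LV-NC 24.8 to 38.3 and those of H/R-LV-BMAL1 108, 102 and 73.3. All 3 H/R-LV-BMAL1 libraries lay above the rest. The log2 rise was 2.48 with a standard error of 0.339 (edgeR, adjusted p = 0.0113), and 2.03 with total UMIs (edgeR, adjusted p = 0.0209). It lies in an intron of Prdm2, at chr4:143136136-143136157 on the minus strand. For miR-6945-5p the LV-NC libraries had 23.8, 17.8 and 16.3 CPM scaled by TMM, those of H/R-LV-NC 20.6 to 30.4 and those of H/R-LV-BMAL1 103, 70.4 and 65.8. The groups did not overlap here either. The LV-NC values rest on only 18 to 24 UMIs, and those of miR-7021-5p, at 15.9 to 17.8 CPM, also rest on few. The log2 rise was 2.05 with a standard error of 0.346 (edgeR, adjusted p = 0.0386), and with total UMIs the value of 1.61 did not pass (edgeR, adjusted p = 0.0659). It lies at chr13:55507667-55507688 on the minus strand, in a UTR of Pdlim7. With 1 library left out, miR-7021-5p missed the threshold without LV-NC 1, 2 or 3 and without H/R-LV-BMAL1 2 (edgeR, adjusted p of 0.063 to 0.123), and miR-6945-5p passed only without H/R-LV-NC 2 or H/R-LV-BMAL1 1, with log2 fold changes of 1.81 to 2.19 over all 9.

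miR-3072-5p was the 1 miRNA that fell. The LV-NC libraries had 209, 197 and 161 CPM scaled by TMM, those of H/R-LV-NC 116, 111 and 126 and those of H/R-LV-BMAL1 52.98, 64.8 and 50.4. The groups formed 3 separate steps, with H/R-LV-BMAL1 lowest. With 1 library left out it passed only without H/R-LV-NC 2 or H/R-LV-BMAL1 1 (edgeR, adjusted p up to 0.123 in the others), with log2 fold changes of -1.89 to -1.72. It fell by 1.75 on the log2 scale, with a standard error of 0.296 (edgeR, adjusted p = 0.0386), and by 2.23 with total UMIs (edgeR, adjusted p = 0.0132). It lies at chr12:109747893-109747914 on the plus strand, in an exon of the lincRNA Mirg, at the end of the imprinted Dlk1-Dio3 region, which holds one of the largest groups of miRNA genes in the mouse genome.

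In all, 3 of 1682 miRNAs (0.178%) passed as higher and 1 (0.0595%) as lower with TMM, while 28 (1.66%) passed as higher and 77 (4.58%) as lower with total UMIs. The scalings shared 2 of the higher miRNAs, miR-210-3p and miR-7021-5p, and the lower miR-3072-5p. At an unadjusted p under 0.05 from edgeR with TMM there were 223 higher and 170 lower. The groups did not overlap for 237 miRNAs on the higher side (14.1%) and 193 on the lower side (11.5%) with TMM, or for 104 (6.18%) and 502 (29.8%) with total UMIs. DESeq2 called 97 higher and 48 lower, among them all 4 of the miRNAs above. The count depended on single libraries. With TMM, 60 were higher and 6 lower without H/R-LV-BMAL1 1, and the 4 were among them, while without LV-NC 1 or LV-NC 2 0 were higher and 0 lower, and without LV-NC 3 or H/R-LV-BMAL1 2 1 was higher and 0 lower. Without H/R-LV-NC 2 there were 8 higher, and without H/R-LV-NC 1, H/R-LV-NC 3 or H/R-LV-BMAL1 3 there were 0 lower. With total UMIs, leaving out H/R-LV-BMAL1 2 gave 1 higher and 1 lower, and leaving out H/R-LV-BMAL1 3 gave 11 and 18. Leaving out LV-NC 1, 2 or 3 gave 8 and 16, 11 and 41, or 19 and 28.

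**Figure D1:**
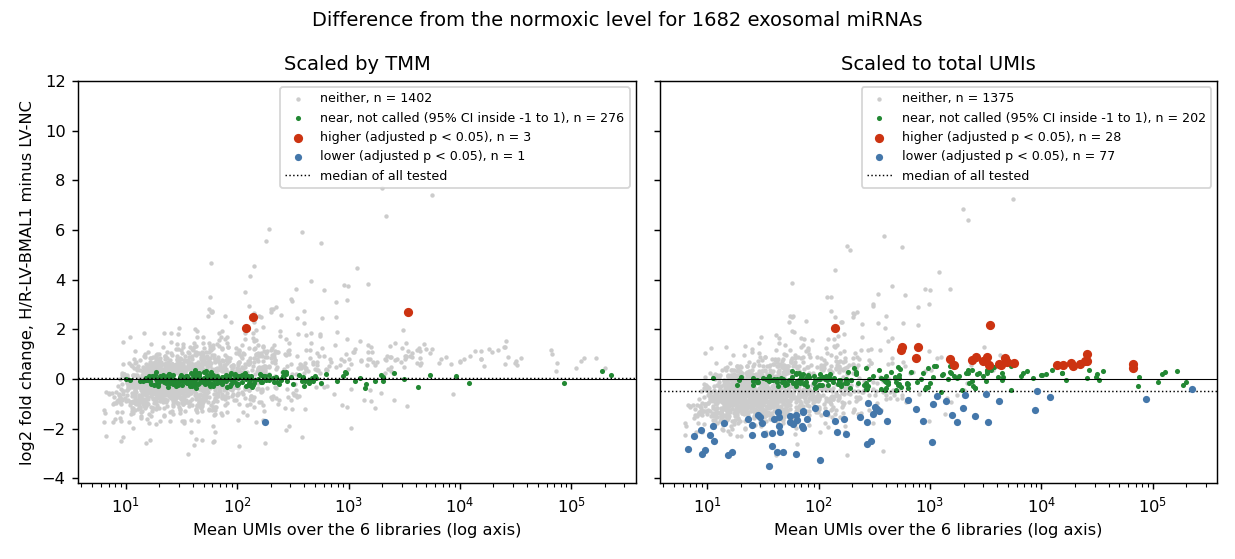
log2 fold change (H/R-LV-BMAL1 minus LV-NC) of 1682 miRNAs against their mean UMIs over the 6 libraries (log axis), scaled by TMM (left) and to total UMIs (right). Red and blue points passed edgeR's test, green points lay near the normoxic level without passing, grey points are the rest, and the dotted median sits at 0.02 on the left and at -0.47 on the right.

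The miRNAs next in order on the higher side had adjusted p of 0.0544 to 0.0679 from edgeR with TMM and so did not pass there, although 5 of these 7 passed with total UMIs. miR-29a-3p, which represses collagen genes, had 5454, 5438 and 6912 CPM scaled by TMM (LV-NC) against 14842, 17416 and 18775 (H/R-LV-BMAL1), a log2 fold change of 1.52 (1.00 with total UMIs, adjusted p = 0.0155 from edgeR). miR-34a-5p, whose gene p53 activates, had 837, 768 and 771 against 1780, 2143 and 2484, with 1.43 (0.90 with total UMIs, adjusted p = 0.0132 from edgeR). miR-195a-5p, of the miR-15/16 family that restrains the cell cycle, had 93.2, 133 and 117 against 278, 365 and 486, with 1.72 (1.16 with total UMIs, adjusted p = 0.0209 from edgeR). The groups did not overlap for any of these with either scaling. Beside them, H/R-LV-NC had log2 fold changes of -0.06, -0.03 and -0.24 against the same LV-NC libraries. miR-218-5p, which lies in an intron of Slit3, had a log2 fold change of 1.46 (0.90 with total UMIs, adjusted p = 0.0132 from edgeR). miR-350-3p had 1.81, or 1.30 with total UMIs (adjusted p = 0.0209 from edgeR). The last 2, miR-1950 and miR-195a-3p, passed with neither scaling. miR-1950 leaned on H/R-LV-BMAL1 1, with 275 CPM scaled by TMM there against 118 and 94.1 in the other libraries of the group, and its log2 fold change of 2.58 became 1.95 without that library.

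The other miRNAs that passed as higher with total UMIs were mostly abundant. Of all 28, 23 had a mean of at least 1000 UMIs, every one had a log2 fold change of at least 1.01 with TMM, and 27 had an adjusted p under 0.1 there (highest 0.117). They included miR-21a-5p, which promotes renal fibrosis, with 17522, 19074 and 20387 CPM scaled by TMM for LV-NC against 31728, 43553 and 51757 for H/R-LV-BMAL1. This is a log2 fold change of 1.16 with TMM (edgeR, adjusted p = 0.0679) and of 0.61 with total UMIs (edgeR, adjusted p = 0.0132). Of the 123 miRNAs with a mean of at least 1000 UMIs, 18.7% were higher with total UMIs. Of 55 seeds shared by at least 2 miRNAs with a mean of 50 UMIs or more, 10 had a higher member, 6 of them 1 member and 4 of them 2. How many would be so from abundance alone was not computed. The 4 were those of miR-29a-3p and miR-29c-3p (of 3 members), miR-148b-3p and miR-152-3p (of 3), both miR-26 members (of 2), and miR-30a-5p and miR-30e-5p (of 4). miR-182-5p and miR-183-5p, neighbours on chromosome 6 of a cluster known from sensory cells and from the clock, had 0.71 and 0.66 with total UMIs (adjusted p = 0.0132 and 0.0133 from edgeR), and 1.27 and 1.22 with TMM (edgeR, adjusted p = 0.0679 for both). Both arms of the hairpin miR-872 also passed with total UMIs, with 0.80 (3p) and 0.55 (5p).

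Sizes on the lower side were less even between libraries. Behind miR-3072-5p came 9 miRNAs with adjusted p of 0.0679 to 0.0925 from edgeR with TMM, none of which passed there and all of which passed with total UMIs. miR-149-3p had 276, 366 and 448 CPM scaled by TMM (LV-NC) against 147.5, 153 and 172 (H/R-LV-BMAL1), with a log2 fold change of -1.20 (-1.72 with total UMIs, adjusted p = 0.0158 from edgeR). miR-541-5p, of the Dlk1-Dio3 region, had 51.6, 82.0 and 79.1 against 20.6, 25.6 and 31.8, with -1.45 (-1.99 with total UMIs, adjusted p = 0.0132 from edgeR). The groups did not overlap for either. Other values leaned on the library LV-NC 1. miR-379-5p, also of the Dlk1-Dio3 region, had 2535 CPM scaled by TMM in LV-NC 1 against 607 and 570 in LV-NC 2 and 3 and 212, 283 and 439 for H/R-LV-BMAL1, and its log2 fold change of -1.99 became -0.97 without LV-NC 1. The same library was the highest for let-7g-3p, miR-6412 and miR-7675-3p, whose log2 fold changes of -2.06, -1.92 and -2.70 became -1.09, -1.19 and -1.47 without it. miR-8108 had -2.51, miR-7018-5p -1.38 and miR-652-5p -1.13. Of the 77 miRNAs that passed as lower with total UMIs, 40 had a mean under 100 UMIs and 17 a mean of at least 1000 UMIs.

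**Figure D2:**
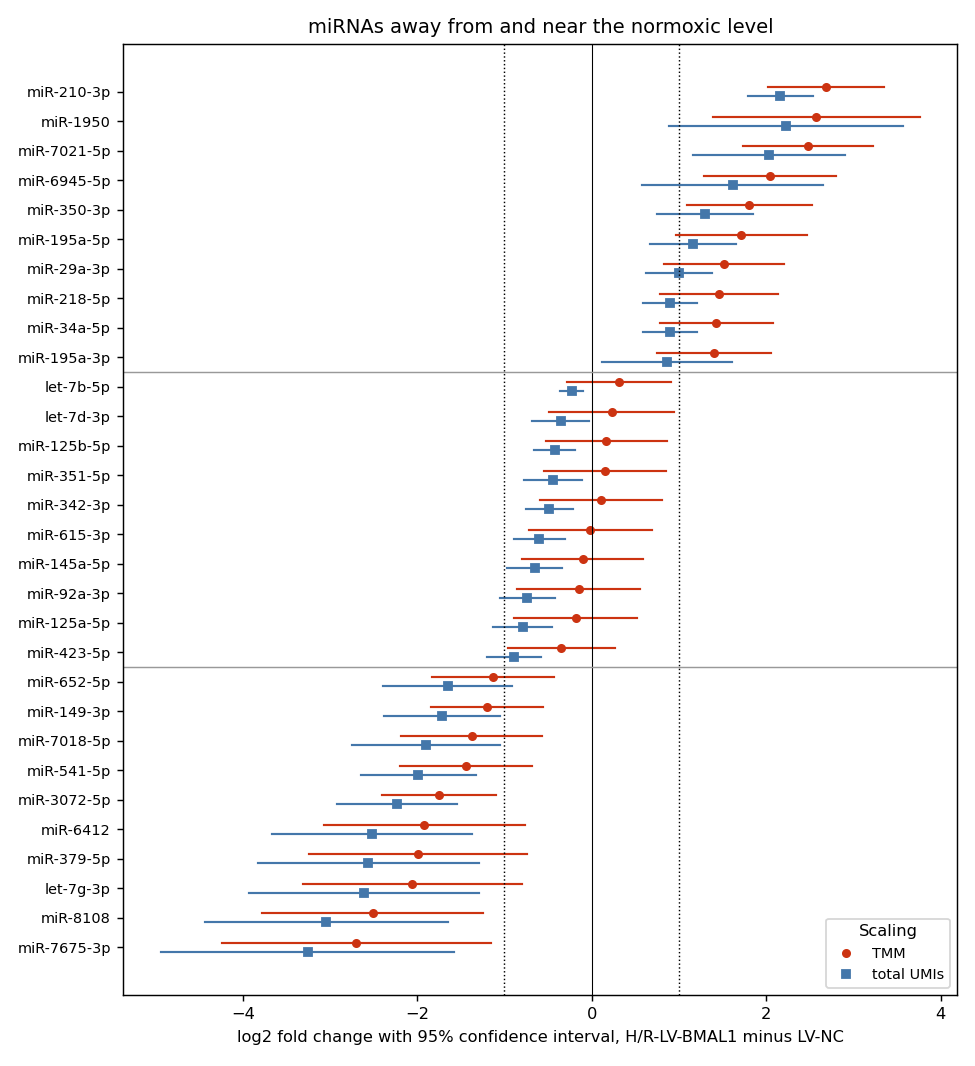
log2 fold change (H/R-LV-BMAL1 minus LV-NC) with its 95% confidence interval for the 10 named miRNAs on the higher side (top), the 10 most abundant near ones (middle) and the 10 named on the lower side (bottom), with TMM (circles) and total UMIs (squares). Dotted lines mark a 2-fold difference (log2 of -1 and 1), and miR-210-3p lies beyond it with both scalings at 2.69 and 2.16.

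A miRNA was taken as near the normoxic level where the 95% confidence interval of its fold change stayed within a 2-fold difference. With TMM 276 of 1682 miRNAs (16.4%) were near, with total UMIs 220 (13.1%), and 29 (1.72%) with both, 26 of them with a mean of at least 50 UMIs. The count with TMM was 91 without H/R-LV-BMAL1 2, and 141, 108 and 138 without LV-NC 1, 2 and 3. The 276 took 29.8% to 31.5% of LV-NC UMIs and 20.5% to 24.4% of H/R-LV-BMAL1 UMIs. The most abundant near miRNA was miR-125b-5p, which is also the most abundant of all. Its LV-NC libraries had 108971, 118131 and 113264 CPM scaled by TMM against 79814, 117476 and 185279 for H/R-LV-BMAL1, so the LV-NC libraries lay inside the range of the others. Its fold was 1.12 (95% confidence interval 0.693 to 1.82). The interval reached past the 2-fold limit without LV-NC 2 or 3, without H/R-LV-BMAL1 1 or 2, and with upper quartiles. The upper ends there were 1.03 to 1.08 (log2). With total UMIs its log2 fold change of 0.17 turned to -0.43 with an interval of -0.66 to -0.19, still inside the 2-fold limits, and it passed as lower there, with every H/R-LV-BMAL1 library below every LV-NC library (edgeR, adjusted p = 0.0444). miR-125a-5p, with the same seed, had a log2 fold change of -0.19 with TMM (-0.89 to 0.52) and -0.79 with total UMIs (-1.13 to -0.46, adjusted p = 0.0209 from edgeR), which reaches past the 2-fold limit. Its TMM interval also reached past it without LV-NC 1 or 3 or H/R-LV-BMAL1 2 or 3, and with a replicate block. So did its interval with upper quartiles and with only miRNAs of 50 mean UMIs or more.

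For let-7b-5p the LV-NC libraries had 91089, 87221 and 81187 CPM scaled by TMM and those of H/R-LV-BMAL1 had 81724, 109990 and 130923, so the groups overlapped. It was near with both scalings, at 0.31 (-0.28 to 0.91) with TMM and -0.23 (-0.37 to -0.10) with total UMIs. Its TMM interval reached past the 2-fold limit without LV-NC 1, 2 or 3, H/R-LV-NC 3, or H/R-LV-BMAL1 1 or 2. It also did so with the replicate block, and with upper quartiles in place of TMM (upper ends of 1.003 to 1.11 in all these fits). miR-351-5p and let-7d-3p were also near with both and passed with neither, at 0.15 and 0.23 with TMM and -0.44 and -0.35 with total UMIs. Their TMM intervals reached past the limit without LV-NC 2 or 3 or H/R-LV-BMAL1 1 or 2. Both intervals also did so with upper quartiles in place of TMM, and that of let-7d-3p without H/R-LV-NC 3 and with RLE scaling. miR-342-3p, miR-615-3p and miR-145a-5p were near with both, but passed as lower with total UMIs, at -0.49, -0.60 and -0.66 (adjusted p = 0.0466, 0.0272 and 0.0272 from edgeR). Their TMM log2 fold changes were 0.11, -0.01 and -0.10. The TMM interval of miR-615-3p reached past the limit without H/R-LV-BMAL1 3, and that of miR-145a-5p at least without LV-NC 1. miR-145a-5p is known from smooth muscle and mesenchymal cells. miR-92a-3p and miR-423-5p were near with TMM only, at -0.15 and -0.35, and passed as lower with total UMIs at -0.74 and -0.89. Both TMM intervals reached past the limit without LV-NC 1, 2 or 3 or H/R-LV-BMAL1 2 or 3. That of miR-423-5p also did so without H/R-LV-NC 3 and with the replicate block. Both did so with upper quartiles, and with only miRNAs of 50 mean UMIs or more. In all, 9 miRNAs near with TMM passed as lower with total UMIs and 0 as higher. Among the 5 most abundant miRNAs, let-7c-5p was the next after miR-125b-5p, at 0.43 with TMM and -0.11 with total UMIs. miR-16-5p had 0.86 and 0.31, and let-7f-5p had 0.83 and 0.27. The intervals of these 3 reached past 2-fold with TMM, and all 3 were near with total UMIs.

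**Figure D3:**
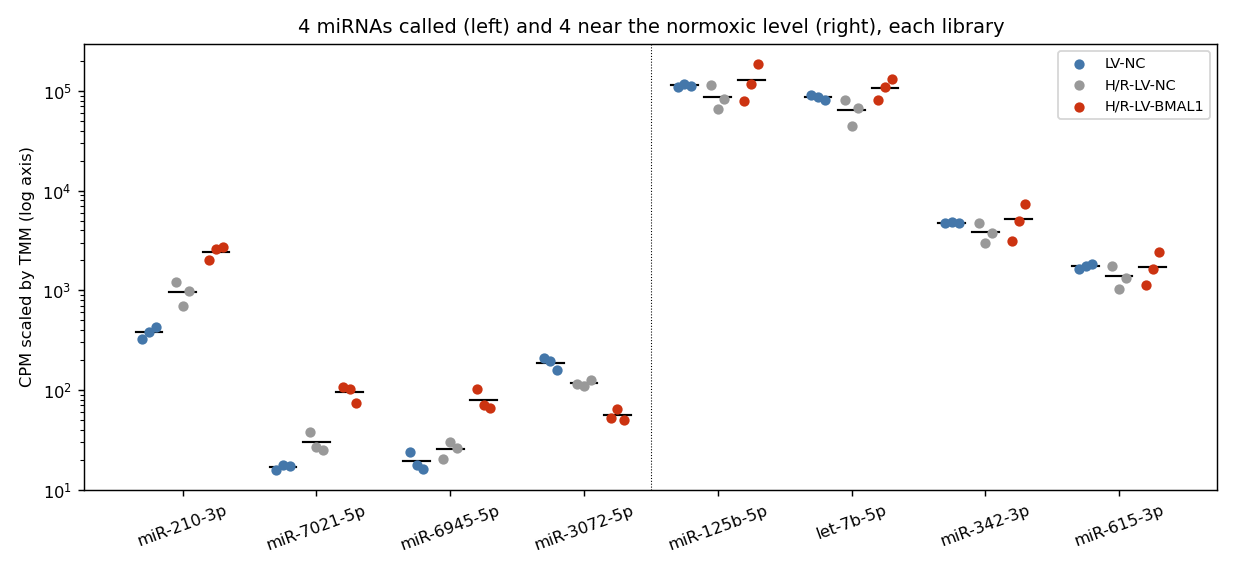
Level in each library (CPM scaled by TMM, log axis) of the 4 miRNAs that passed and of 4 near ones, in the 3 groups, with a bar at the mean of 3 libraries. H/R-LV-BMAL1 libraries of miR-210-3p (2023 to 2703) lie above all others, while those of miR-125b-5p (79814 to 185279) lie on both sides of LV-NC.

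miR-27a-3p, the miRNA the study follows, was counted with 33, 30 and 24 UMIs for LV-NC and with 53, 82 and 89 for H/R-LV-BMAL1, or 32.7, 29.6 and 19.6 against 16.8, 30.9 and 39.3 CPM scaled by TMM. The groups overlapped. Its log2 fold change was 0.09 with an interval of -0.83 to 1.00 at the 2-fold limit (adjusted p = 0.923 from edgeR), and -0.49 with total UMIs (-1.30 to 0.32), so it passed neither test and these counts do not place it within a 2-fold difference. A two-sided exact permutation test gave p = 0.9 with TMM and p = 0.3 with CPM. Its sequence differs from miR-27b-3p by 1 base, so these few reads could be split between them.
miR-27a-3p: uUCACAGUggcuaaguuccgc

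Groups of miRNAs with known roles are described by how many members passed and by their median log2 fold change, beside medians of 0.02 (TMM) and -0.47 (total UMIs) for all tested. Depth of counting goes with these medians: miRNAs with a mean under 20 UMIs had a median of -0.26 with TMM and those of at least 10000 UMIs had 0.80. The lists differ in this, since the median member had a mean of at least 1000 UMIs in 9 of the 18 and under 100 UMIs in 5. Of the 123 miRNAs with a mean of at least 1000 UMIs, 23 (18.7%) were higher, 17 (13.8%) lower and 82 (66.7%) near with total UMIs, with medians of 0.79 with TMM and 0.23 with total UMIs, and lists of abundant miRNAs are to be read against these. The summed share of H/R-LV-BMAL1 lay above that of LV-NC in every library for 11 of the 18 lists, below it for 3, and overlapped for 4. Of single miRNAs, 6.18% lay above and 29.8% below in this way with total UMIs. Sums follow the most abundant members, and lists share members. The anti-fibrotic and circadian-linked lists, for instance, both hold miR-29a-3p and miR-30a-5p, so the 11 are not separate results. Of the hypoxia-responsive list, miRNAs reported to respond to low oxygen, 20 of 20 were tested, 1 was higher with TMM (miR-210-3p) and 4 with total UMIs (also miR-21a-5p and both miR-26 members), close to the share of equally abundant miRNAs. Its median was 0.85 with TMM and 0.29 with total UMIs. Its summed share of the UMIs was 5.68% to 7.01% for LV-NC, 6.36% to 6.68% for H/R-LV-NC and 8.18% to 8.98% for H/R-LV-BMAL1. The H/R-LV-NC libraries thus lay inside the range of LV-NC. miR-107-3p and miR-103-3p of this list, which repress Dicer, were near with total UMIs at 0.14 and 0.19. Of the circadian-linked list, 14 of 14 were tested, 0 passed with TMM and 4 were higher with total UMIs (miR-182-5p, miR-183-5p, miR-29a-3p and miR-30a-5p), with medians of 0.99 and 0.40. Its share was 3.81% to 4.85% for LV-NC, 3.88% to 4.45% for H/R-LV-NC and 6.07% to 6.58% for H/R-LV-BMAL1, so this was one of the 11 lists above LV-NC in every library. miR-219a-5p, a clock-regulated miRNA, and miR-132-3p, which responds to light in the clock of the brain, had 1.32 and 1.11 with TMM and did not pass (adjusted p = 0.0819 and 0.17 from edgeR).

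The lists of miRNAs known to restrain or to promote fibrosis were both among those 11. With total UMIs, 18.7% of the 123 abundant miRNAs were higher, 13.8% lower and 66.7% near. Of all 1682 tested, 1.66% were higher, 4.58% lower and 13.1% near. Of 15 tested anti-fibrotic miRNAs 0 passed with TMM and 6 were higher with total UMIs (miR-152-3p, miR-26a-5p and the printed pairs of the miR-29 and miR-30 families), with medians of 1.06 and 0.51. Of 11 tested pro-fibrotic miRNAs 0 passed with TMM and 2 were higher with total UMIs (miR-21a-5p and miR-34a-5p), close to the share of the abundant miRNAs. Their medians were 0.90 and 0.34, beside 0.79 and 0.23 for the 123 abundant miRNAs. Of 9 tested inflammation miRNAs, miR-146b-5p and miR-221-3p were higher and miR-125b-5p lower with total UMIs. miR-155-5p, which drives macrophage inflammation, was near with total UMIs, at 0.34 (adjusted p = 0.0546 from edgeR), and had 0.90 with TMM (adjusted p = 0.117 from edgeR). Of 13 tested kidney tubule miRNAs, miR-30a-5p and miR-30e-5p were higher and miR-10b-5p lower with total UMIs, and 7 were near.

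The let-7 family and the miR-125/99/100 miRNAs, which share clusters in the genome, were the most abundant groups. let-7 took 33.9% to 39.3% of the LV-NC UMIs and 35.3% to 37.1% of those of H/R-LV-BMAL1, and 10 of its 11 members were near with total UMIs, with a median of -0.07, beside 29 of the 33 miRNAs with a mean of at least 10000 UMIs (87.9%). With TMM 2 were near, 0 passed, and the median was 0.49. miR-125/99/100 took 19.7% to 21.8% of LV-NC UMIs, 18.7% to 21.5% of H/R-LV-NC UMIs and 12.5%, 14.7% and 17.6% for H/R-LV-BMAL1, so every H/R-LV-BMAL1 library was below every LV-NC library. Its median was -0.27 with total UMIs, where 4 of 5 were near and miR-125a-5p and miR-125b-5p passed as lower, and 0.32 with TMM, where 2 of 5 were near and 0 passed. Of the 33 miRNAs with a mean of at least 10000 UMIs, 9.09% were lower with total UMIs. In the miR-15/16 family 6 of 6 members had positive log2 fold changes with both scalings, with medians of 0.82 and 0.27, and miR-195a-5p passed with total UMIs. The 123 miRNAs with a mean of at least 1000 UMIs had like medians of 0.79 and 0.23, and 18.7% of them were higher with total UMIs. The share of positive values among these 123 was not computed. Of 11 tested members of the miR-17-92 cluster and its paralogs, miR-93-5p was higher and miR-92a-3p lower with total UMIs. Beside them, 18.7% of the 123 abundant miRNAs were higher and 13.8% lower, and 1.66% and 4.58% of all tested. miR-25-3p, with the seed of miR-92a-3p printed above, had 0.30 and was near, against -0.74 for miR-92a-3p. Of the miR-23/27/24 clusters 1 of 11 passed with total UMIs, miR-24-1-5p, which was lower at -3.53 on a mean of 35.8 UMIs, with 119 CPM in LV-NC 3 against 17.3 and 14.3 in the other LV-NC libraries. Among all tested, 4.58% were lower with total UMIs.

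**Figure D4:**
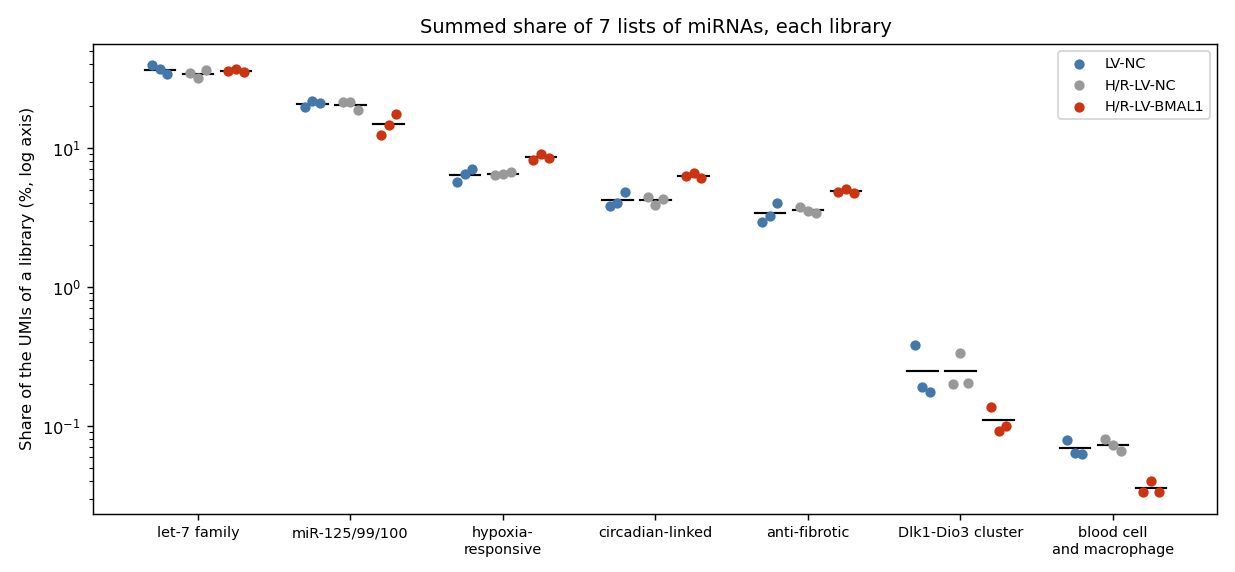
Share of the UMIs of each library (%, log axis) that 7 lists of miRNAs took in the 3 groups, with a bar at the mean of 3 libraries. The let-7 family stays at 33.9% to 39.3% for LV-NC and 35.3% to 37.1% for H/R-LV-BMAL1, while miR-125/99/100 drops below 18% in each H/R-LV-BMAL1 library.

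Of 31 tested miRNAs of the Dlk1-Dio3 list, 0 passed with TMM and 4 were lower with total UMIs (miR-134-5p, miR-379-5p, miR-409-3p and miR-541-5p), with medians of -0.01 and -0.49 that are close to those of all tested. Their summed level was 1742 to 3821 CPM for LV-NC, 2010 to 3367 CPM for H/R-LV-NC and 925 to 1356 CPM for H/R-LV-BMAL1. The highest value was that of LV-NC 1. The sum leans on miR-379-5p, with a mean of 1047 UMIs over the 6 libraries against 41.8 for the median tested member. With TMM, 15 of the 31 had positive log2 fold changes and 16 had negative ones. Between positions 109563744 and 109743784 of chromosome 12, 8 of 88 tested miRNAs (9.09%) were lower with total UMIs, against 4.58% of all tested. With TMM 0 of the 88 were lower, and their median was -0.09. These 88 lie densely, and the share of all tested miRNAs with a tested neighbour within 10 kb was not computed. Of the 77 lower miRNAs 10 had another lower one within 10 kb, 8 of them in this region and its edge and the others being miR-486a-5p and miR-486b-5p, which lie on opposite strands of one locus and may share reads. These red cell miRNAs were the 2 of 7 tested in the blood cell and macrophage list that passed, at -1.20 and -1.21 with total UMIs (-0.65 for each with TMM, where they did not pass). The list summed to 628 to 793 CPM for LV-NC, 657 to 807 CPM for H/R-LV-NC and 332 to 399 CPM for H/R-LV-BMAL1. miR-451a, the defining red cell miRNA, was at 8 to 21 UMIs in LV-NC. The source of these miRNAs was not tested. In the lists of other cell types and repeat-derived miRNAs, miR-145a-5p was the 1 of 8 endothelial and mesenchymal members that passed with total UMIs. It was lower, as were 13.8% of the 123 abundant miRNAs. Of 7 liver and muscle members 0 passed. In the Sfmbt2 cluster 1 of 25 members passed, miR-466n-3p, which was lower, as were 4.58% of all tested. Neither count stands above the share given beside it. The 2 of 7 in the blood cell and macrophage list lay above 4.58%, but rest on a pair that may share reads.

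Markers of neural cells were unevenly spread over the libraries. For miR-9-5p the LV-NC libraries had 9, 7 and 11 UMIs, those of H/R-LV-NC 16, 7 and 457, and those of H/R-LV-BMAL1 473, 631 and 10780. It was above LV-NC in all 3 libraries, but H/R-LV-BMAL1 3 held 87.5% of its level summed over 9 libraries (CPM scaled by TMM), and its log2 fold change of 7.68 did not pass (adjusted p = 0.0679 from edgeR). In the same library miR-338-3p had 705 UMIs against 26 and 31 in the other H/R-LV-BMAL1 libraries and 5 to 9 in LV-NC. miR-124-3p, the defining miRNA of neurons, had 255 UMIs there, 35 in each of the others of the group and 4 to 11 in LV-NC. miR-338-3p was named for its values, not by the rule. The neural list took 0.0761% to 0.0783% of LV-NC UMIs and 0.141% to 0.454% of H/R-LV-BMAL1 UMIs, and its part in other results was not tested.

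The ratio of the 5p to the 3p arm of a hairpin within a library does not depend on the scaling of whole libraries. It can still vary with GC content where the arms differ in it. Of 386 hairpins with a mean of at least 20 UMIs for each arm, 5 (1.30%) changed their ratio at an adjusted p under 0.05 from limma, 4 (1.04%) toward the 5p arm and 1 (0.259%) toward the 3p arm. The groups did not overlap for 110 hairpins (28.5%). For miR-25 the log2 of the ratio was -4.30, -4.05 and -4.05 for LV-NC and -5.59, -5.34 and -5.37 for H/R-LV-BMAL1, a change of -1.30 (standard error 0.196, adjusted p = 0.024 from limma). Its 3p arm, the more abundant one, was 17.5 times the 5p arm for LV-NC and 43.2 times for H/R-LV-BMAL1. For miR-93, which comes from the same cluster, the 5p arm was 92.3 times the 3p arm for LV-NC and 198 times for H/R-LV-BMAL1 (log2 change 1.10, adjusted p = 0.0411 from limma). miR-149 changed by 1.55 (adjusted p = 0.0411) and miR-532 by 1.32 (adjusted p = 0.0453), both toward the more abundant 5p arm. miR-6945 went from -1.46, -1.31 and -1.76 to 0.48, 1.11 and 0.64, a change of 2.25 (adjusted p = 0.0273), so that the 3p arm was the more abundant in every LV-NC library and the 5p arm in every H/R-LV-BMAL1 library. miR-6945-3p itself had a log2 fold change of -0.20 with TMM and -0.61 with total UMIs and did not pass. Thus 4 of the 5 moved toward the arm that was more abundant in LV-NC, as did 191 of all 386 hairpins and 41 of the 63 whose arms were more than 8-fold apart. For none of the 5 did the H/R-LV-NC libraries overlap those of H/R-LV-BMAL1. The arm that lost share was the richer in GC for miR-25 (59.1% against 50%), miR-93 (59.1% against 52.2%) and miR-149 (81.8% against 60.9%). For miR-6945 it was the poorer (57.1% against 77.3%), and miR-532-5p had no sequence to compare. The part of GC content in these ratios was not tested. Without LV-NC 1, LV-NC 3 or H/R-LV-BMAL1 3 no hairpin passed, and without H/R-LV-NC 3 or H/R-LV-BMAL1 2 there were 2.

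**Figure D5:**
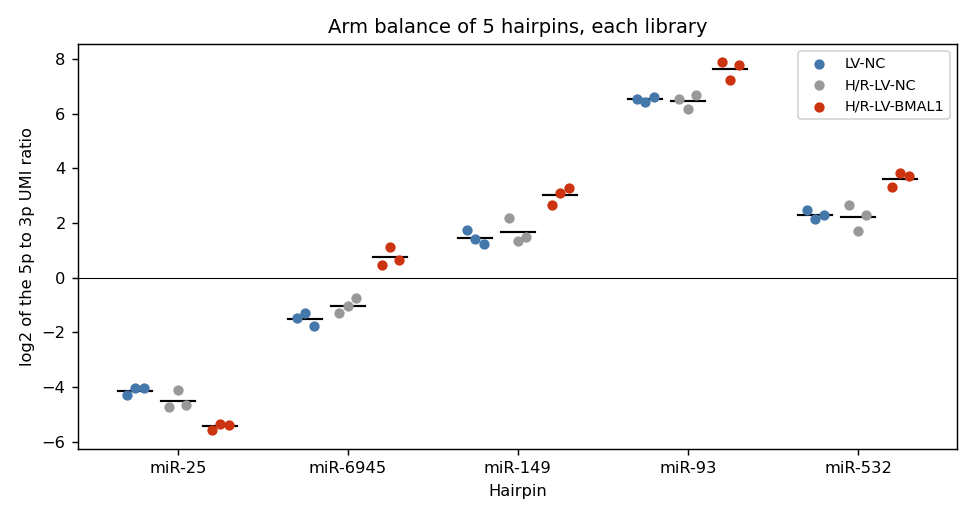
log2 of the 5p to 3p UMI ratio in each library for the 5 hairpins that passed limma's test, with a bar at the mean of the 3 libraries of each group. For miR-6945 the ratio crosses 0, from -1.76 to -1.31 in LV-NC to 0.48 to 1.11 in H/R-LV-BMAL1.

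GC content and a motif were read from the mature sequences, as a description with no test. Among 1465 tested miRNAs with a RefSeq sequence the median GC content was 54.2%, while it was 40.9% in the 26 of these higher with total UMIs, 57.1% in the 69 lower and 47.8% in the 195 near with total UMIs, and 57.1% in the 239 near with TMM. Most of the higher ones were abundant, and the 112 miRNAs with a mean of at least 1000 UMIs had a median of 47.7%. The motif GGAG, searched on the mature strand, was in 15.5% of the 1465, in 3.85% (1 miRNA) of the higher, 10.1% of the lower and 11.8% of the near with total UMIs, in 20.5% of the near with TMM, and in 15.2% of the abundant 112. Among miRNAs with a mean of at least 50 UMIs, those under 45% GC (121) had a median log2 fold change of 0.25 with total UMIs, those of 45% to 55% (205) had -0.17 and those of 55% and over (312) had -0.41. The order was the same with TMM, at 0.81, 0.35 and 0.10, and with total UMIs among the 112, at 0.34, 0.16 and -0.35. The libraries of H/R-LV-BMAL1 were unlike in this. The GC-rich class lay -0.03, -0.58 and -0.998 from the LV-NC mean in H/R-LV-BMAL1 1, 2 and 3 (median log2 difference with total UMIs), and 0.67 in H/R-LV-NC 2. With TMM applied within these 3 classes of GC content, an alternative chosen after seeing the data, 17 of 1465 miRNAs were higher and 14 lower, and all 4 miRNAs above passed. Of the 17, 13 were among the 26 higher with total UMIs (76.5% of the 17 and 50% of the 26), among them miR-29a-3p, miR-34a-5p, miR-218-5p, miR-350-3p and miR-195a-5p, and the 14 were among the 69 lower ones (100% and 20.3%).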

How the data were processed

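Exosomes were pelleted from TCMK-1 medium by differential ultracentrifugation, and miRNA libraries were made with the QIAseq kit, 3 for each of 3 groups. The deposited table gave, for 1978 mature miRNAs, a UMI count per library that the authors made by counting unique molecular identifiers, with no normalization. It also gave a deposited CPM, which the authors computed from the same counts (the largest difference from CPM recomputed here was 3.3e-10). Tools named by the submitters' processing notes, without their roles, were edgeR, Bowtie 1.3.0 and cutadapt 2.7. No genome build was named in the sources, but 1671 of 1679 miRNAs with a RefSeq sequence lay at their GRCm38.p6 positions, so GRCm38 is used. All columns of libraries were used (0 left unused).

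Counts were tested with edgeR 4.0.16 in R 4.3.3 (quasi-likelihood, TMM, filterByExpr, Benjamini-Hochberg over 1682 miRNAs, all 9 libraries in 1 fit, adjusted p under 0.05). A miRNA was near where the 95% confidence interval of its log2 fold change lay between -1 and 1. Arm ratios were tested with limma 3.58.1 on log2 of the 5p to 3p UMIs, with 1 UMI added. Single miRNAs were compared by exact permutation over 20 arrangements (scipy 1.17.1). Replicates are not said to be separate cultures, and p-values therefore reflect the spread of these libraries alone, which may be technical. The scripts were tested on simulated data. Library totals of 977490 to 4057046 UMIs limit precision through the shallower LV-NC libraries.

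Members and lists were chosen with earlier results of these data known. Named in each direction were the 10 called miRNAs with the largest log2 fold change, a mean of 50 UMIs or more and groups that do not overlap, filled up by p where fewer passed, then called list members, the 10 most abundant near miRNAs, the 5 most abundant of all, the 5 hairpins of smallest p, miR-27a-3p and miR-210-3p. The cell type markers are list members, of which miR-486a-5p and miR-30a-5p passed with total UMIs. The miRNAs that stand for a list (miR-107-3p, miR-103-3p, miR-132-3p, miR-219a-5p, miR-155-5p, miR-451a) are list members that did not pass. miR-8090, miR-872-3p, miR-872-5p and miR-338-3p were given for values already seen. Alternatives were total UMIs, RLE and upper quartile scaling, other filters, only the 6 libraries, DESeq2 1.42.0, limma-voom, a replicate block and leaving out each library. Total UMIs with a library left out, and TMM within classes of GC content, were chosen after seeing the data. The promoter table held 0 miRNA genes, so a search for the E-box CACGTG was not run.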

Additional observations from a re-analysis of the deposited data

How the results depend on the processing

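With TMM, 3 miRNAs were higher, 1 lower and 276 near, and 5 arm ratios changed. With total UMIs there were 28 higher and 77 lower, with DESeq2 97 and 48, within classes of GC content 17 and 14, with miRNAs of 50 mean UMIs or more 6 and 3 (165 near), and with only the 6 libraries 1 and 0. Lower counts were 0 with RLE, with upper quartiles (144 near) and with no filter. Near counts were 0 with limits of 1.5-fold. Arm ratios changed for 11 hairpins with at least 50 UMIs for each arm and for 3 with only the 6 libraries. Leaving out 1 library gave 0 to 60 higher, 0 to 6 lower, 91 to 280 near and 0 to 5 arm ratios. The extremes were 60 and 6 without H/R-LV-BMAL1 1 and 91 near without H/R-LV-BMAL1 2. Without H/R-LV-NC 2 there were 8 higher, and without H/R-LV-NC 3 or H/R-LV-BMAL1 2 there were 2 arm ratios.

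With total UMIs and 1 library left out, counts of higher, lower and near were 8, 16 and 176 without LV-NC 1, then 11, 41 and 144 without LV-NC 2, and 19, 28 and 147 without LV-NC 3. They were 32, 57 and 155 without H/R-LV-BMAL1 1, then 1, 1 and 131 without H/R-LV-BMAL1 2, and 11, 18 and 181 without H/R-LV-BMAL1 3. Without H/R-LV-NC 1, 2 or 3 they were 23 and 62, 35 and 110, and 24 and 60 higher and lower. Replicate numbers did not pair the libraries (r = -0.09, -0.02 and 0.02 for equal numbers). With the replicate block 0 were lower and 2 arm ratios changed. The cause of these shifts was not tested.

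miR-210-3p kept its direction in all 29 fits run and passed in 27, missing without LV-NC 1 (adjusted p = 0.101 from edgeR) and LV-NC 2 (adjusted p = 0.0567 from edgeR), with a log2 fold change of 2.05 to 2.80. miR-7021-5p passed in 20, miR-3072-5p in 16 and miR-6945-5p in 8. miR-27a-3p turned to -0.49 with total UMIs, to -0.13 with miRNAs of 50 mean UMIs or more, and without 1 library it ranged from -0.25 to 0.35, below 0 without LV-NC 3 (-0.11), H/R-LV-BMAL1 2 (-0.00) or H/R-LV-BMAL1 3. Depth limits the scarce miRNAs: the median width of the interval on each side was 1.06 (log2, TMM) under 20 mean UMIs and 0.65 from 10000.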
